A study of Mus musculus with 24 samples.

Results

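The mitochondrial ribosomal protein genes of the mouse were taken from both deposited count tables as every gene whose symbol was Mrpl or Mrps followed by a number and at most 1 letter, without pseudogenes. This gave 78 genes of 57010 in each table, 49 named Mrpl and 29 named Mrps. All 78 were found in both tables and passed the filter on low counts in both, with between 352 and 3324 counts per library.

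The libraries came from the olfactory epithelium, the sheet of sensory neurons and supporting cells that lines the back of the nose, of wild-type male C57BL/6J mice aged 8 weeks. After 4 h in an odor-free chamber each mouse spent 90 min with a filter paper carrying 10 µL of odorant. In the AD table the groups were decanal, an aldehyde with an unbranched chain, acetophenone, a ketone with an aromatic ring, the AD mixture (acetophenone and decanal, 1:1) and the AD control (empty paper). In the OC table they were octanal, an unbranched aldehyde with a shorter chain than decanal, cis-3-hexenol, an alcohol with a double bond, the OC mixture (octanal and cis-3-hexenol, 1:1) and the OC control (empty paper). Each of the 8 groups had 3 biological replicates, and no group carried a transgene or an altered allele. The 2 tables are separate batches per the labels, so each odorant was set against the control of its own table. RNA was taken from a detergent-cleared supernatant of whole tissue, and poly(A) RNA was sequenced with a strand-specific kit.

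Mitochondria make some respiratory chain proteins themselves, on a ribosome of their own. Its RNAs are transcribed from mitochondrial DNA, but all its proteins are encoded in the nucleus, translated in the cytosol and imported. The small subunit binds the messenger RNA and reads its codons, and the large subunit joins the amino acids and feeds the growing chain into the inner membrane. Some of these proteins have counterparts in bacterial ribosomes, and others were gained in the mitochondrial lineage. Olfactory sensory neurons carry mitochondria in the dendritic knob from which their cilia arise.

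Totals ran from 19003768 to 24802512 counts per library. The tissue label was met by the markers: Omp, the olfactory marker protein of mature sensory neurons, stood between 9532 and 12793 CPM over the 8 group means, and Cyp2g1, a supporting-cell enzyme, between 1588 and 2468. Libraries of a group were not copies of each other. Replicate 3 of the OC control stood farthest from its group by chi-square per gene, at 113 and 88.2 against replicates 1 and 2. It had 0.595% of counts from mitochondrially encoded transcripts, against 0.872% and 0.915% in replicates 1 and 2. In the OC mixture this share was also apart in replicate 3, at 0.470%, against 0.772% and 0.834% in replicates 1 and 2. CPM here are counts scaled to a common depth, with library sizes adjusted by TMM within a table. The Omp and Cyp2g1 values above are scaled to total counts without TMM.

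Per length, the members spanned 10.2 to 259 TPM (counts divided by annotated transcript length and then scaled to a common depth, as means over all 24 libraries). The 5 highest were Mrpl27 at 259 TPM, Mrpl42 at 249, Mrpl28 at 229, Mrps33 at 210.0 and Mrps34 at 171. The 5 lowest were Mrps25 at 15.9 TPM, Mrps35 at 15.1, Mrpl19 at 13.6, Mrpl47 at 12.6 and Mrpl1 at 10.2. The 2 ends of this order lay apart in all 24 libraries: Mrpl27 ran from 208 to 293 TPM and Mrpl1 from 8.47 to 11.5. Neighbours in the order, such as Mrpl27 and Mrpl42 with 163 to 299 TPM, overlapped. The order depended on the annotated length, since some annotated transcripts are far longer than their coding part: Mrps25, of 6073 bases with 513 coding, ranked 74 of 78 per transcript length and 34 per coding length, whereas Mrpl1 ranked 78 and 77.

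The promoters of 4 members, picked after their values were seen, are printed here as examples. The first 3 genes are among the 23 members called higher with decanal and lower with octanal, and were also higher with the AD mixture. The fourth, Mrpl50, was called higher with octanal (values follow). Each is the 250 bases before the annotated start in RefSeq on GRCm38.p6, 5′ to 3′ on the strand of the gene, with matches to motifs known from promoters of mitochondrial and ribosomal genes in capitals. Mrpl58 is at chr11:115403502-115403751, forward strand, Mrpl18 at chr17:12916092-12916341, reverse strand, Mrpl30 at chr1:37890227-37890476, forward strand and Mrpl50 at chr4:49521084-49521333, reverse strand.
Mrpl58: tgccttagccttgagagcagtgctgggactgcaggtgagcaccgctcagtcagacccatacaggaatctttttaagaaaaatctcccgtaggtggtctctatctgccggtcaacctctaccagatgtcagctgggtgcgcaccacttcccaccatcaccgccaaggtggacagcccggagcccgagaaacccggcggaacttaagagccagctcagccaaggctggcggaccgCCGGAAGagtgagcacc
Mrpl18: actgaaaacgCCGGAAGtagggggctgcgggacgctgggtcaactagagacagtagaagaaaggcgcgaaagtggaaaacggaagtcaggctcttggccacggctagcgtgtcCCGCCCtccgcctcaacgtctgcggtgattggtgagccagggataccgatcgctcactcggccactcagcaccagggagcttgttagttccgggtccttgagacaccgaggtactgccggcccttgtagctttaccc
Mrpl30: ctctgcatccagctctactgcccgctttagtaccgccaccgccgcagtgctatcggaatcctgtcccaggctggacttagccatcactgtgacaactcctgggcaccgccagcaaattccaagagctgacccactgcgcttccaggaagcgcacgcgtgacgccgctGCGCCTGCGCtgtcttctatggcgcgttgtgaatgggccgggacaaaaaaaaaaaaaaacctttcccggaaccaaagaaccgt
Mrpl50: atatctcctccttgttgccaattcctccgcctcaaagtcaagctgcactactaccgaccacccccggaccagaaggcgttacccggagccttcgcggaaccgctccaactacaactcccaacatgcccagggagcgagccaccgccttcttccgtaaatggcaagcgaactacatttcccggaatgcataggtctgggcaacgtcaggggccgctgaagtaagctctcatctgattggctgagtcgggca
The capitals mark an ETS motif (CCGGAAG) beginning 17 bases before the start of Mrpl58 and 240 before that of Mrpl18, an SP1 motif (GGGCGG, here as its reverse complement) 137 bases before the start of Mrpl18, and an NRF1 motif (GCGC, any base, TGCGC) 83 bases before that of Mrpl30. In Mrpl50 none of the 4 sets of letters searched is present. RefSeq promoters were matched by symbol for 69 of the 78 members, as 75 windows. The ETS motif, on either strand and with overlaps with other motifs allowed, was in 24% of the members' windows and in 6.91% of all 32851 windows of the same length. The NRF1 motif was in 13.3% and 3.74%, the YY1 motif (AAGATGGC) in 5.33% and 1.56%, and the SP1 motif in 49.3% and 32.7%. An ETS or NRF1 motif was in 36% and 10.1%, whereas the printed windows of Mrpl58, Mrpl18 and Mrpl30 all hold 1. Among members with a window, the ETS motif was in 11 of 44 that rose with decanal and in 7 of 25 that did not, the NRF1 motif in 6 and 4, the YY1 motif in 4 and 0, and the SP1 motif in 25 and 8. These differences were not tested. A match is a run of letters and not a measured binding site.

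**Figure D1:**
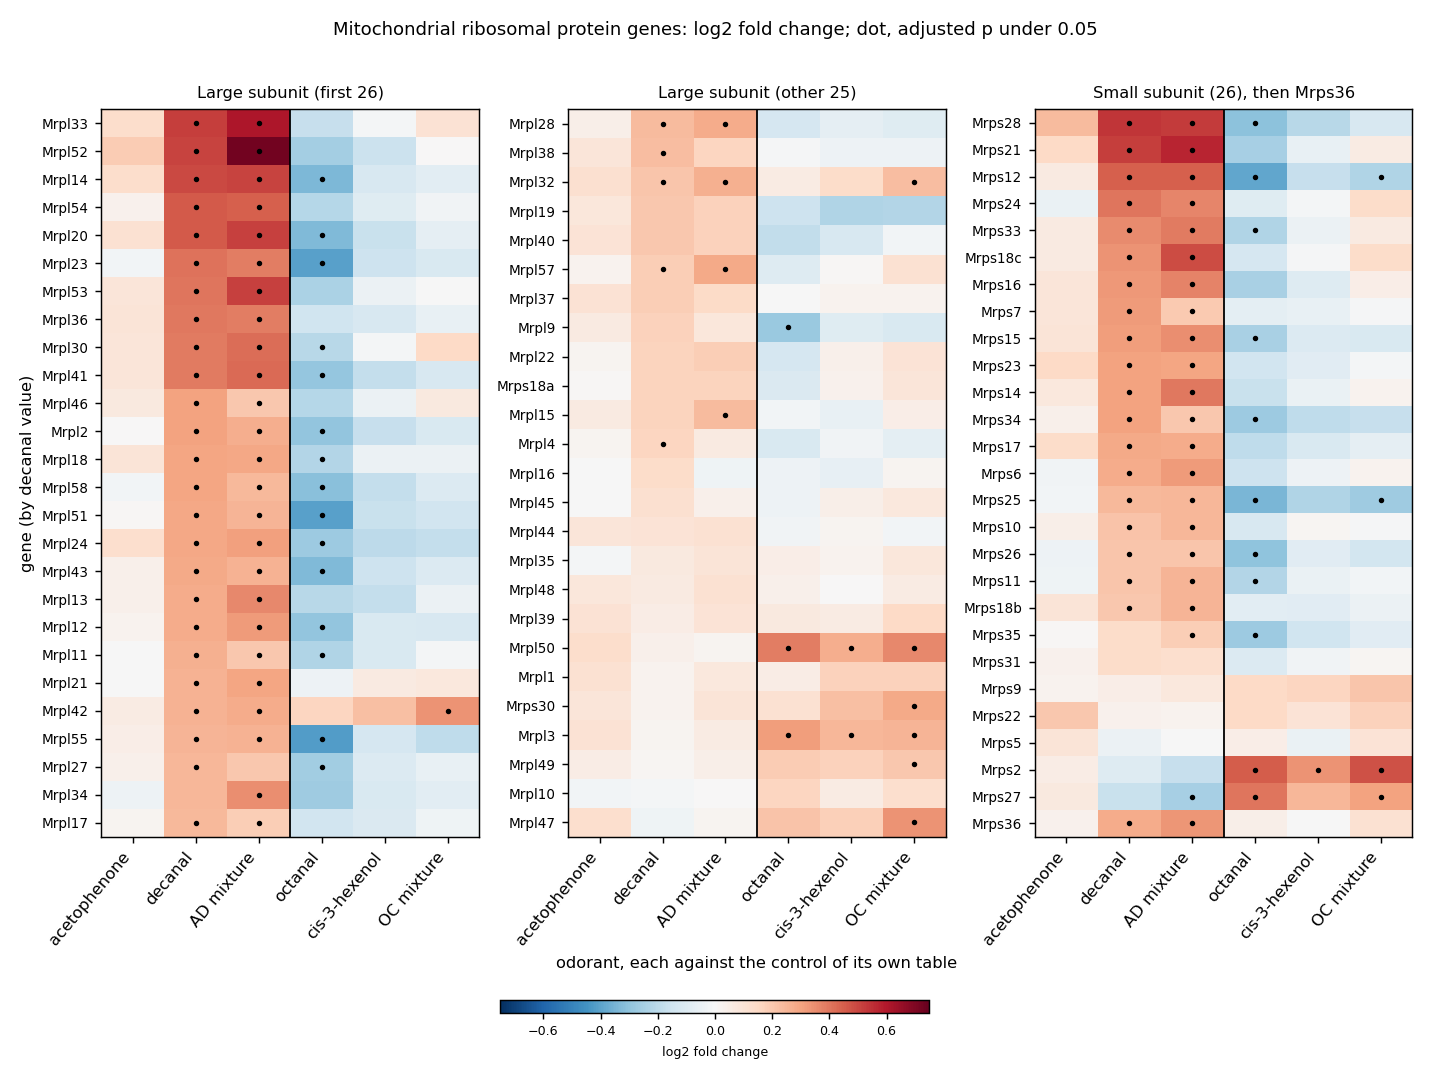
Log2 fold change of the 78 members (rows, by subunit and by the decanal value) with each odorant against the control of its own table (columns), with a black dot at an adjusted p under 0.05. Red fills most of the decanal and AD mixture columns, with 50 dots for higher members in each, the acetophenone column holds no dot, and the octanal column holds 25 dots on blue and 4 on red.

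Acetophenone moved no member past the test. Of 78 members 0 were higher and 0 lower by edgeR's quasi-likelihood test with Benjamini-Hochberg adjustment over all genes, while 0.00512% of the 19525 tested genes were called higher and 0% lower. DESeq2 also called 0 members, with 11 genes higher and 19 lower over all genes. Before adjustment 7 members had an edgeR p under 0.05, against 1287 of the 19525 tested genes. The median log2 fold change of the members was 0.066, against 0.006 over all tested genes. Values above 0 were found in 64 of 78 members and in 10159 of the 19525 genes. Mrps28, a small-subunit protein with a bacterial counterpart, had the smallest p among the higher ones, with 34.9, 31.5 and 33.4 CPM with acetophenone and 28.6, 29.6 and 26.6 in the AD control (log2 fold change 0.24, SE 0.081, adjusted p = 0.593). Its groups did not overlap, but the difference missed the threshold. The next by p were Mrpl50 (0.13, adjusted p = 0.601), Mrps22 (0.20, adjusted p = 0.608) and Mrpl52 (0.19, adjusted p = 0.61). Among members below 0, Mrps24, Mrps26, Mrps11 and Mrpl58 led, with log2 fold changes between -0.053 and -0.023 and adjusted p of 0.89 or more.

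Decanal raised a broad set of the members by a small amount. 50 of 78 rose and 0 fell, which is 64.1% of the members, against 11.4% of all 19525 tested genes called higher and 12.5% lower. The members' median log2 fold change was 0.25, against 0.01 over all tested genes, and their range ran from -0.17 to 0.54. The rise covered 30 of 51 proteins of the large subunit and 19 of 26 of the small one, and Mrps36. In the large subunit these were Mrpl2, Mrpl4, Mrpl11, Mrpl12, Mrpl13, Mrpl14, Mrpl17, Mrpl18, Mrpl20, Mrpl21, Mrpl23, Mrpl24, Mrpl27, Mrpl28, Mrpl30, Mrpl32, Mrpl33, Mrpl36, Mrpl38, Mrpl41, Mrpl42, Mrpl43, Mrpl46, Mrpl51, Mrpl52, Mrpl53, Mrpl54, Mrpl55, Mrpl57 and Mrpl58, with log2 fold changes of 0.16 to 0.52. In the small subunit they were Mrps6, Mrps7, Mrps10, Mrps11, Mrps12, Mrps14, Mrps15, Mrps16, Mrps17, Mrps18b, Mrps18c, Mrps21, Mrps23, Mrps24, Mrps25, Mrps26, Mrps28, Mrps33 and Mrps34, with 0.20 to 0.54.

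Mrps12 (ENSMUSG00000045948), the protein at the decoding centre of the small subunit, had the smallest p of the members. It had 61.6, 59.9 and 64.0 CPM with decanal and 44.2, 47.0 and 44.6 in the AD control, a 1.37-fold level (log2 fold change 0.45, SE 0.058, adjusted p = 7.73e-05). All 3 decanal libraries stood above all 3 controls. The large-subunit proteins Mrpl33 (ENSMUSG00000106918), Mrpl30 (ENSMUSG00000026087) and Mrpl20 (ENSMUSG00000029066), all with bacterial counterparts, came next. Mrpl33 had 41.5, 39.4 and 45.3 CPM with decanal and 30.7, 30.3 and 27.2 in the AD control (log2 fold change 0.52, SE 0.067, adjusted p = 8.71e-05). Mrpl30, whose promoter holds the NRF1 motif, had 41.3, 41.1 and 40.6 CPM with decanal and 30.7, 31.7 and 31.3 in the AD control (log2 fold change 0.39, SE 0.051, adjusted p = 9.60e-05). In neither gene did the groups overlap, and the spread within a group was a few CPM at most. Mrpl20, which binds early to the ribosomal RNA of the large subunit in bacteria, had 50.5, 47.6 and 45.6 CPM with decanal and 33.9, 34.9 and 35.8 in the AD control (log2 fold change 0.46, SE 0.061, adjusted p = 0.0001). The highest fold was that of Mrps28 (ENSMUSG00000040269), with 37.2, 42.3 and 43.7 CPM with decanal and 28.6, 29.6 and 26.6 in the AD control (log2 fold change 0.54, SE 0.081, adjusted p = 0.000264).

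No member fell with decanal. The 4 lowest were Mrps27, a pentatricopeptide-repeat protein that binds RNA (log2 fold change -0.17, SE 0.075, adjusted p = 0.121), Mrps2 (-0.099, adjusted p = 0.339), Mrps5 (-0.042, adjusted p = 0.651) and Mrpl47 (-0.033, adjusted p = 0.797). Mrps27 had 21.0, 21.1 and 21.5 CPM with decanal and 22.1, 25.2 and 24.1 in the AD control, so that the groups stood apart without a call. Of the 50 calls, 37 were made in each of the 6 fits that left out 1 library. With offsets for transcript length and GC content 21 members were called higher and 0 lower, with a median of 0.087. With coding length in place of transcript length 15 were higher and 1, Mrpl49, lower. Over all 19525 tested genes these fits called 1366 higher and 1620 lower, and 1375 and 1944. The transcript length fit left Mrpl33, Mrpl30 and Mrpl20 without a call, at 0.14 (adjusted p = 0.152), 0.16 (adjusted p = 0.051) and 0.16 (adjusted p = 0.0821). With coding length they were called, at 0.19 (adjusted p = 0.0441), 0.21 (adjusted p = 0.00921) and 0.23 (adjusted p = 0.0117). Called in all 3 fits were Mrpl17, Mrpl24, Mrpl58, Mrps12, Mrps14, Mrps24, Mrps28 and Mrps33.

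The AD mixture, which contains decanal and was tested against the same control libraries, gave 50 members higher and 1 lower, against 10.6% and 11.6% of all tested genes. The median log2 fold change was 0.25, against 0.0068 over all genes. Mrpl52 (ENSMUSG00000010406), a mitochondria-specific large-subunit protein, led, with 24.9, 26.4 and 26.5 CPM in the AD mixture and 16.3, 15.1 and 15.6 in the AD control, a 1.65-fold level (log2 fold change 0.73, SE 0.068, adjusted p = 6.10e-06). All 3 mixture libraries stood above all 3 controls. Decanal alone gave 22.0, 22.4 and 22.5 CPM of it. Mrpl33 (0.61, adjusted p = 2.15e-05), Mrpl20 (0.51, adjusted p = 3.44e-05) and Mrpl30 (0.42, adjusted p = 4.56e-05) followed by p, all higher. Transcript length and GC offsets gave 0.26 (adjusted p = 0.0403) for Mrpl52 and 0.17 (adjusted p = 0.0813) for Mrpl33. With coding length they were at 0.41 (adjusted p = 0.00197) and 0.21 (adjusted p = 0.0285). Called in the fit without offsets and in both with offsets were Mrpl20, Mrpl24, Mrpl30, Mrpl52, Mrps12, Mrps14, Mrps28 and, lower, Mrps27.

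Mrps27 was the member that fell with the AD mixture, at 20.5, 21.5 and 18.1 CPM, against 22.1, 25.2 and 24.1 in the AD control (log2 fold change -0.25, SE 0.076, adjusted p = 0.0282). This call was lost without replicate 2 or 3 of the AD control or replicate 3 of the AD mixture (adjusted p = 0.113, 0.0806 and 0.0944). Mrps2 (-0.17, adjusted p = 0.0917), Mrpl16 (-0.034, adjusted p = 0.788) and Mrps5 (-0.0037, adjusted p = 0.973) were next below 0. Offsets for transcript length and GC gave 23 members higher and 2, Mrps27 and Mrpl16, lower. With coding length these counts were 13 and 3, the lower ones being Mrps27, Mrps2 and Mrpl49. Over all 19525 tested genes these fits called 1402 higher and 1641 lower, and 1311 and 1771.

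**Figure D2:**
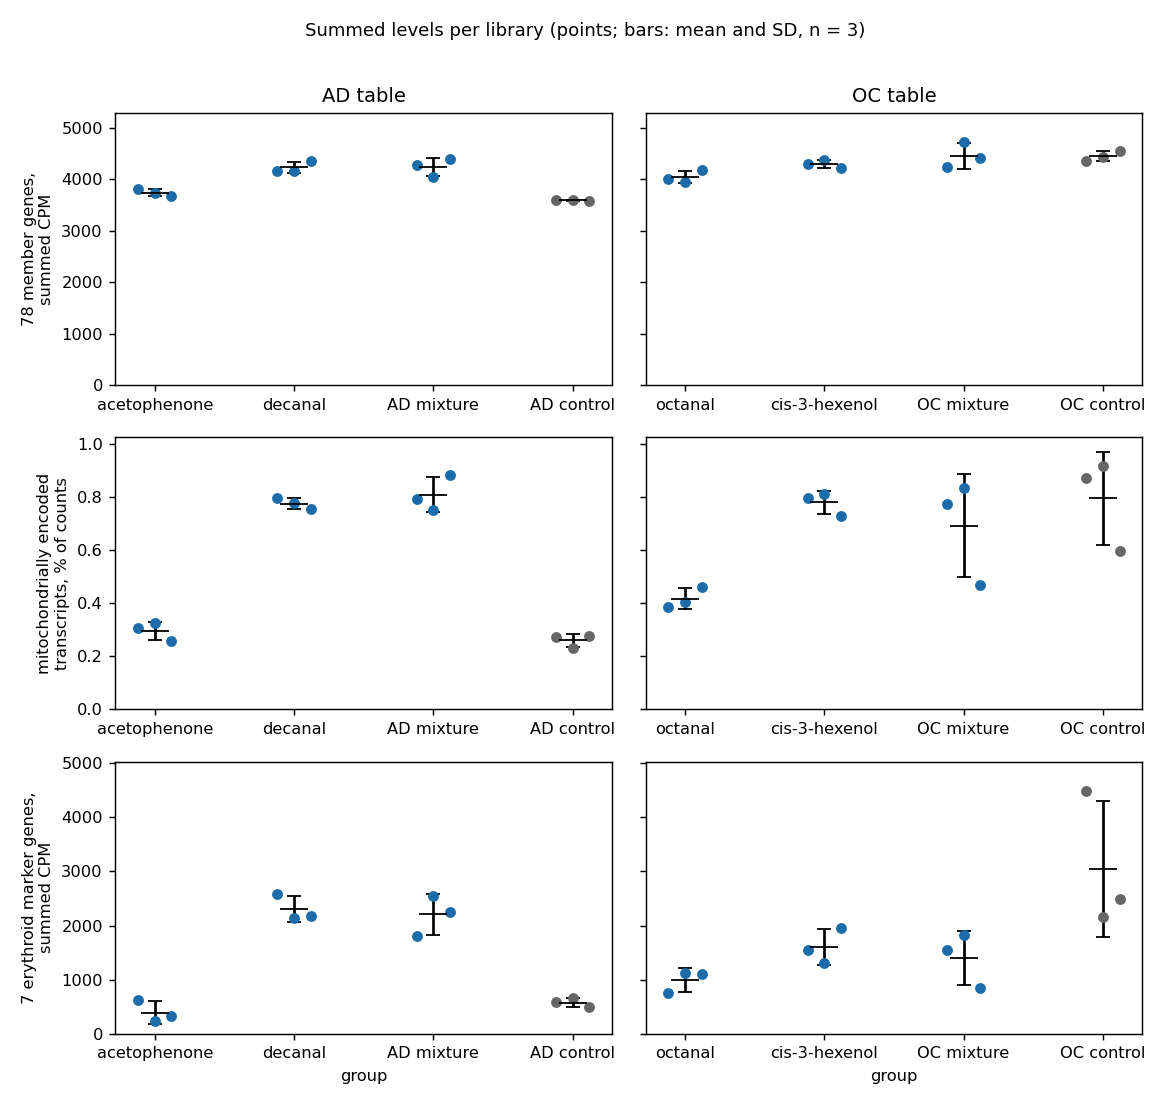
Summed level of the 78 members in CPM (top), share of counts from mitochondrially encoded transcripts in percent (middle) and summed CPM of 7 erythroid marker genes (bottom), per library (points) with mean and SD for each group, AD table on the left and OC table on the right. In the AD table decanal and the AD mixture stand above the control in all 3 measures, and in the OC table octanal stands below its control in all 3.

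Summed over the 78 members, decanal libraries held 4166, 4157 and 4358 CPM and AD mixture libraries 4268, 4049.9 and 4397, against 3585, 3602 and 3583 in the AD control. The decanal mean of 4227 ± 113 CPM (SD, n = 3) was 17.7% above the control mean of 3590.3 ± 10.1, and that of the AD mixture, 4238 ± 176, was 18.1% above it. Acetophenone libraries held 3804, 3735 and 3681 CPM, 4.17% above the control on average. In each of these 3 comparisons the groups did not overlap, and a two-sided exact permutation test gave p = 0.1, the smallest that 3 against 3 libraries allow. As a share of unscaled counts the acetophenone and control libraries overlapped. Both subunits were higher. With decanal the large subunit summed to 2889.9 ± 69.8 CPM, against 2472 ± 18.5 in the control, and the small subunit to 1309 ± 41.0, against 1095 ± 12.6.

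Markers of other cells moved with the same groups. Of 7 erythroid genes 7 were called higher with decanal and 7 with the AD mixture, of 8 bone genes 6 and 7, of 8 neutrophil and marrow genes 7 and 7, and of 6 macrophage genes 4 and 4, with none lower. The erythroid genes summed to 2148 to 2585 CPM over the decanal libraries and 1805 to 2553 over those of the AD mixture, against 495 to 652 in the AD control. The bone genes summed to 2348 to 3029 CPM with decanal and 2519 to 3869.7 in the AD mixture, against 1602 to 1842. The macrophage genes summed to 117 to 144 CPM with decanal and 124 to 152 in the AD mixture, against 88.1 to 96.0. The marrow sum was 291 to 436 CPM with decanal and 313 to 459.7 in the AD mixture, against 194, 169 and 615 in the AD control, where replicate 3 stood above every other library. Most of this sum was Ltf, with means of 295 CPM in the AD control and 217 with decanal, scaled without TMM. Every other gene of that list had a higher mean with decanal than in the AD control. The other lists gave, as higher and lower with decanal, 0 and 0 of 5 tested genes of immature neurons, 1 and 0 of 7 of basal cells, 0 and 1 of 5 of ciliated cells, 0 and 0 of 5 of ensheathing cells, 0 and 0 of 6 of the olfactory bulb, 0 and 1 of 2 of muscle and 0 and 0 of 3 of the vomeronasal organ. Every gene of the 4 lists of blood, bone and immune cells was above 0 in each of the 8 group means. Of 10 genes of mature sensory neurons, 1 was called higher and 5 lower with decanal, and of 7 of supporting cells 2 and 4. The part of these cells in the members' rise was not tested, and in whole tissue more cells of a type cannot be told apart from more RNA per cell.

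Decanal was also set against acetophenone, at the same volume, time and batch. 44 members were higher with decanal and 1, Mrps27, lower, against 12.6% and 14.4% of all tested genes, with a median log2 difference of 0.20. Without acetophenone replicate 2 the counts were 29 and 0, and without decanal replicate 3 26 and 1. Mrps24 had the smallest p (log2 fold change 0.45, SE 0.058, adjusted p = 5.81e-05), with 50.8, 49.3 and 52.9 CPM with decanal and 39.3, 36.9 and 35.5 with acetophenone. Mrps27 had 21.0, 21.1 and 21.5 CPM with decanal and 25.6, 25.1 and 24.5 with acetophenone (log2 fold change -0.24, SE 0.075, adjusted p = 0.0257), and was called in 3 of 6 fits without 1 library. The counts were 16 higher and 2 lower with transcript length and GC offsets, with a median of 0.026. Over all 19525 tested genes these offsets gave 1686 higher and 2216 lower, with a median of 0.0076.

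Octanal lowered a smaller set of members and raised a few. 25 of 78 fell and 4 rose, against 15% of the 19175 tested genes called lower and 14.4% higher, so that the share of members that fell, 32.1%, was above that background and the share that rose, 5.13%, below it. The median log2 fold change was -0.15, against -0.021 over all genes. Members of the large subunit gave 16 lower and 2 higher, and those of the small subunit 9 and 2. The 25 were Mrpl2, Mrpl9, Mrpl11, Mrpl12, Mrpl14, Mrpl18, Mrpl20, Mrpl23, Mrpl24, Mrpl27, Mrpl30, Mrpl41, Mrpl43, Mrpl51, Mrpl55, Mrpl58, Mrps11, Mrps12, Mrps15, Mrps25, Mrps26, Mrps28, Mrps33, Mrps34 and Mrps35, with log2 fold changes of -0.42 to -0.21.

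Mrpl51 (ENSMUSG00000030335), a mitochondria-specific large-subunit protein, had the smallest p among those that fell, with 88.7, 94.7 and 108 CPM with octanal and 122, 133 and 131 in the OC control (log2 fold change -0.41, SE 0.078, adjusted p = 0.0015). Mrpl58 (ENSMUSG00000018858), a peptidyl-tRNA hydrolase built into the large subunit that frees stalled chains, and whose promoter holds the ETS motif near its start, had 82.6, 84.2 and 88.3 CPM with octanal and 101, 105 and 110.3 in the OC control (log2 fold change -0.31, SE 0.061, adjusted p = 0.00167). Both genes had all 3 octanal libraries below all 3 controls. Mrpl55 (-0.42, adjusted p = 0.002) and Mrps12 (-0.39, adjusted p = 0.00212) followed. Mrps12 stood at 51.1, 52.1 and 60.4 CPM with octanal and 69.9, 73.2 and 71.1 in the OC control.

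The 4 members that rose with octanal were Mrpl50, Mrps2, Mrpl3 and Mrps27. Mrps2 (ENSMUSG00000035772), a small-subunit protein with a bacterial counterpart, had 36.2, 39.5 and 36.9 CPM with octanal and 24.4, 29.1 and 29.0 in the OC control, a 1.37-fold level (log2 fold change 0.45, SE 0.086, adjusted p = 0.00134). Mrpl50 (ENSMUSG00000044018), a mitochondria-specific large-subunit protein, had 87.4, 80.2 and 87.5 CPM with octanal and 61.1, 69.2 and 65.4 in the OC control (log2 fold change 0.38, SE 0.071, adjusted p = 0.00117). Mrps27 (ENSMUSG00000041632) had 22.7, 23.0 and 23.6 CPM with octanal and 16.1, 18.7 and 17.7 in the OC control (log2 fold change 0.40, SE 0.094, adjusted p = 0.00507). These groups did not overlap, and the OC control was the low group in all 3 genes. Mrpl3, near the peptidyl transferase centre, was at 45.0 ± 1.93 CPM with octanal and 36.1 ± 1.42 in the OC control (SD, n = 3, log2 fold change 0.32, SE 0.067, adjusted p = 0.00266).

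Without octanal replicate 1 the octanal counts were 13 lower and 4 higher, and without octanal replicate 2 13 and 4. Without OC control replicate 3, the library that stood apart, 18 were lower and 5 higher. In fits with transcript length and GC offsets 16 were lower and 4 higher, and with coding length 13 and 7. Over all 19175 tested genes these fits called 2177 lower and 2224 higher, and 2402 and 2327. Called lower in all 3 fits were Mrpl9, Mrpl24, Mrpl43, Mrpl51, Mrpl55, Mrpl58, Mrps25, Mrps26, Mrps33 and Mrps35, and higher in all 3 were Mrpl50, Mrps2 and Mrps27. Of the 25 lower calls 10, and of the higher ones all 4, were made in each of the 6 fits that left out 1 library.

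The summed level was 3999, 3946 and 4174 CPM in octanal libraries, against 4352, 4437 and 4549 in the OC control, with means of 4039 ± 119 and 4446 ± 98.8 CPM (SD, n = 3, a difference of -9.15%, exact permutation p = 0.1, the smallest possible). As a share of unscaled counts, 0.408 ± 0.00707% with octanal and 0.436 ± 0.0223% in the OC control, the groups overlapped (exact permutation p = 0.2). The same marker lists moved with octanal, here downward: 7 of 7 erythroid, 7 of 8 bone, 7 of 8 marrow and 4 of 6 macrophage genes were called lower and none higher. The erythroid genes summed to 748 to 1127 CPM over the octanal libraries, against 2166 to 4490.1 in the OC control, the bone genes to 1340.3 to 1664, against 2657 to 4005, the marrow genes to 157 to 258, against 275 to 435, and the macrophage genes to 90.8 to 101, against 131 to 147. Of 7 supporting-cell genes 4 were called higher and 1 lower with octanal, with sums of 13394 to 14336 CPM, against 8605 to 11523 in the OC control, and of 10 genes of mature sensory neurons 5 and 2, with sums of 18451 to 19712, against 19893 to 22551 CPM. The part of these cells in the members' fall was not tested.

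cis-3-Hexenol raised 3 members, Mrps2, Mrpl50 and Mrpl3, and lowered 0 by the same test, and DESeq2 called 0 lower as well. Before adjustment 19 of 78 members had a p under 0.05, against 5353 of all 19175 tested genes. Over all tested genes 5.56% were called higher and 6.65% lower, so the share of members called higher, 3.85%, was below the background. The median log2 fold change was -0.051, against -0.0058 over all genes. Mrps2 had 36.4, 33.7 and 34.0 CPM with cis-3-hexenol and 24.4, 29.1 and 29.0 in the OC control (log2 fold change 0.34, SE 0.086, adjusted p = 0.0216). Mrpl50 had 73.6, 78.6 and 84.0 CPM with cis-3-hexenol and 61.1, 69.2 and 65.4 in the OC control (log2 fold change 0.27, SE 0.071, adjusted p = 0.0235). Mrpl3 had a log2 fold change of 0.25 (adjusted p = 0.0257), and Mrps30, the next by p, 0.22 (adjusted p = 0.0627). Members below 0 were led by Mrps25 (-0.22, adjusted p = 0.068), Mrpl58 (-0.18, adjusted p = 0.0701), Mrps34 (-0.19, adjusted p = 0.0904) and Mrpl19 (-0.23, adjusted p = 0.139). The calls rested on few libraries: 0 members were called without cis-3-hexenol replicate 3, 1 without its replicate 1 and 7 without OC control replicate 2, while DESeq2 called 5 higher. Without OC control replicate 3 the counts were 3 higher and 0 lower. With transcript length and GC offsets 0 were higher and 3, Mrpl51, Mrpl58 and Mrps14, lower. Over all 19175 tested genes that fit called 624 higher and 650 lower. With coding length 1 member, Mrps2 (0.31, adjusted p = 0.0282), was higher and 2, Mrps25 and Mrpl58, lower. Over all genes that fit called 792 higher and 937 lower. The summed level was 4292, 4376 and 4222 CPM with cis-3-hexenol, against 4352, 4437 and 4549 in the OC control (exact permutation p = 0.2). Of the marker lists, 4 of 7 erythroid and 5 of 8 bone genes were called lower.

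The OC mixture gave 9 members higher and 2 lower, against 11.5% and 12.7% of all tested genes, which puts the share of members called higher, 11.5%, at the background and the share called lower, 2.56%, below it. The median log2 fold change was -0.0034, against -0.006 over all genes. The 9 were Mrps2, Mrpl50, Mrpl42, Mrps30, Mrpl3, Mrpl47, Mrps27, Mrpl32 and Mrpl49, of which the first 5 were called in every fit without 1 library. Mrps2 led, with 41.6, 35.8 and 37.1 CPM in the OC mixture and 24.4, 29.1 and 29.0 in the OC control (log2 fold change 0.48, SE 0.086, adjusted p = 0.00131). Mrpl50 (0.36, adjusted p = 0.0023), Mrpl42 (0.34, adjusted p = 0.00504) and Mrps30 (0.29, adjusted p = 0.0111) followed. Mrps25 fell to 45.4, 52.7 and 50.2 CPM in the OC mixture, against 59.7, 55.5 and 63.3 in the OC control (log2 fold change -0.27, SE 0.077, adjusted p = 0.019), a call lost without OC mixture replicate 1 or OC control replicate 3 (adjusted p = 0.128 and 0.0613). Mrps12 was called lower (log2 fold change -0.23, SE 0.079, adjusted p = 0.0481), but was not in 5 of the 6 fits that left out 1 library (adjusted p up to 0.258, without OC mixture replicate 1). Next below 0 were Mrps34 (-0.17, adjusted p = 0.0859) and Mrpl19 (-0.22, adjusted p = 0.109). The counts higher and lower were 5 and 1 without OC mixture replicate 3, 7 and 0 without its replicate 1, 5 and 2 without OC control replicate 1, 9 and 0 without its replicate 3, and 3 and 4 with transcript length and GC offsets. Over all 19175 tested genes those offsets gave 1547 higher and 1639 lower. With coding length the members' counts were 4 higher and 5 lower, and those over all genes 1701 and 1927. The summed level was 4231, 4720.1 and 4409.9 CPM in the OC mixture, against 4352, 4437 and 4549 in the OC control (exact permutation p = 1.0). Of the marker lists, 6 of 7 erythroid, 7 of 8 bone and 5 of 8 marrow genes were called lower.

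**Figure D3:**
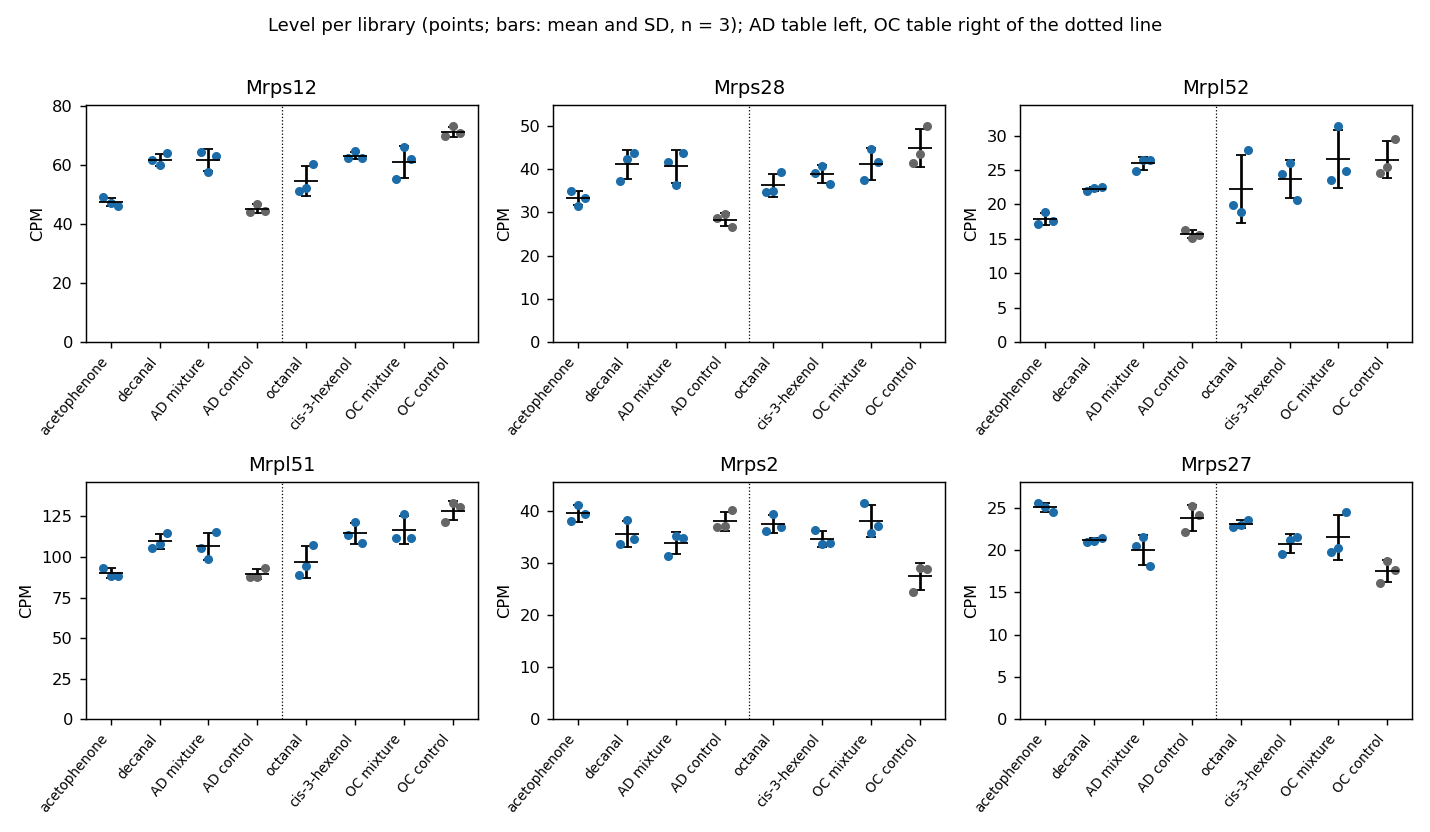
CPM of 6 members per library (points) with mean and SD for each group, AD table left and OC table right of the dotted line. Mrps12, Mrps28, Mrpl52 and Mrpl51 are higher with decanal and the AD mixture than in the AD control, while Mrps2 and Mrps27 are lowest in the OC control.

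In a direct comparison of octanal with cis-3-hexenol, at the same volume and time, no member passed the test. 0 were higher and 0 lower, against 0% and 0% of all 19175 tested genes, and DESeq2 called 0 members, with 154 genes higher and 86 lower over all genes. Before adjustment 16 of 78 members had a p under 0.05, against 2496 of the 19175 genes. The median log2 difference was -0.10. The smallest p belonged to Mrpl55, whose log2 difference of -0.29 had a 95% interval of -0.46 to -0.13 (adjusted p = 0.192), with 33.6, 31.5 and 32.9 CPM with octanal and 39.5, 41.3 and 39.1 with cis-3-hexenol. In a fit of these 6 libraries alone 3 members, Mrpl55, Mrpl23 and Mrps26, were lower with octanal, a count not set beside all genes in that fit.

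Decanal and octanal, the 2 unbranched aldehydes, were given in different batches. In 1 fit of all 24 libraries, the decanal effect against its control exceeded the octanal effect against its own in 54 members and was smaller in 4, against 21.2% and 18% of 20018 tested genes. The members' median difference was 0.45 on the log2 scale, against 0.067 over all genes. Mrps12 had the smallest p, with a difference of 0.86 (SE 0.096, adjusted p = 3.86e-07). Mrpl20 (0.81, adjusted p = 6.17e-07), Mrpl30 (0.62, adjusted p = 6.75e-07) and Mrpl23 (0.84, adjusted p = 1.22e-06) came next. The 4 with the smaller decanal effect were Mrps27 (-0.55, adjusted p = 0.000704), Mrps2 (-0.53, adjusted p = 0.00043), Mrpl50 (-0.32, adjusted p = 0.00308) and Mrpl3 (-0.28, adjusted p = 0.0349). With transcript length and GC offsets the counts were 31 and 7, and the median difference 0.15. Over all genes these offsets gave 3208 and 3037 of 20018, with a median of 0.031. Without OC control replicate 3 the members' counts were 49 and 5. The comparison sets 2 batches side by side, and the chain length of the aldehyde and the batch cannot be told apart.

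The lists of decanal and octanal overlapped. Of the 25 members that fell with octanal, 23 rose with decanal, which is 92.0% of the octanal list and 46.0% of the decanal list. Only 4 members rose with octanal, and 0 of them rose with decanal, a count not set beside all genes. Over all 19015 genes tested in both tables, 1106 were higher with decanal and lower with octanal, 38.7% of the 2861 that were lower with octanal and 50.5% of the 2190 that were higher with decanal. Across the 78 members the decanal and octanal log2 fold changes, from libraries that share no sample, had a Pearson correlation of -0.77 and a Spearman correlation of -0.71, against -0.37 and -0.50 over the 19015 genes. Signs were opposite in 65 of 78 members, 83.3%, and in 13433 of the 19015 genes, 70.6%. The members' correlation was -0.78 with transcript length and GC offsets and -0.61 with coding length. Members are not independent samples, and gene length and base composition are shared by both values. Mrps12 and Mrps25 were called in the most comparisons, 4 of 6 each, both higher with decanal and the AD mixture and lower with octanal and the OC mixture. Mrpl11, Mrpl12, Mrpl14, Mrpl18, Mrpl2 and Mrpl20, each called in 3, were higher with decanal and the AD mixture and lower with octanal. Of these, the octanal call of Mrpl11 was made in none of the fits without 1 library (adjusted p up to 0.183, without octanal replicate 1), that of Mrpl18 in 1 of 6 (up to 0.132, without octanal replicate 1), as was that of Mrpl30 (up to 0.101, without octanal replicate 2), and those of Mrpl14 and Mrpl2 were lost without octanal replicate 2 (adjusted p = 0.0537 and 0.0677). With length and GC offsets, none of Mrpl11, Mrpl12, Mrpl14, Mrpl18, Mrpl2 and Mrpl20 kept its decanal and octanal calls in both fits. Mrpl11 kept both calls by transcript length and Mrpl20 by coding length. Mrpl18 kept none (adjusted p of 0.0649 or more). Mrps12 kept its decanal call in both fits and its octanal call in neither (adjusted p = 0.107 and 0.0781). Mrps25 kept its octanal call in both and its decanal call by transcript length. In all, 17 members (Mrpl1, Mrpl10, Mrpl16, Mrpl19, Mrpl22, Mrpl35, Mrpl37, Mrpl39, Mrpl40, Mrpl44, Mrpl45, Mrpl48, Mrps5, Mrps9, Mrps18a, Mrps22 and Mrps31) were called in none of the 6 comparisons with a control, 8 in 1, 25 in 2, 26 in 3 and 2 in 4. These counts are not set beside a matching count over all genes, so they show nothing particular to the members.

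**Figure D4:**
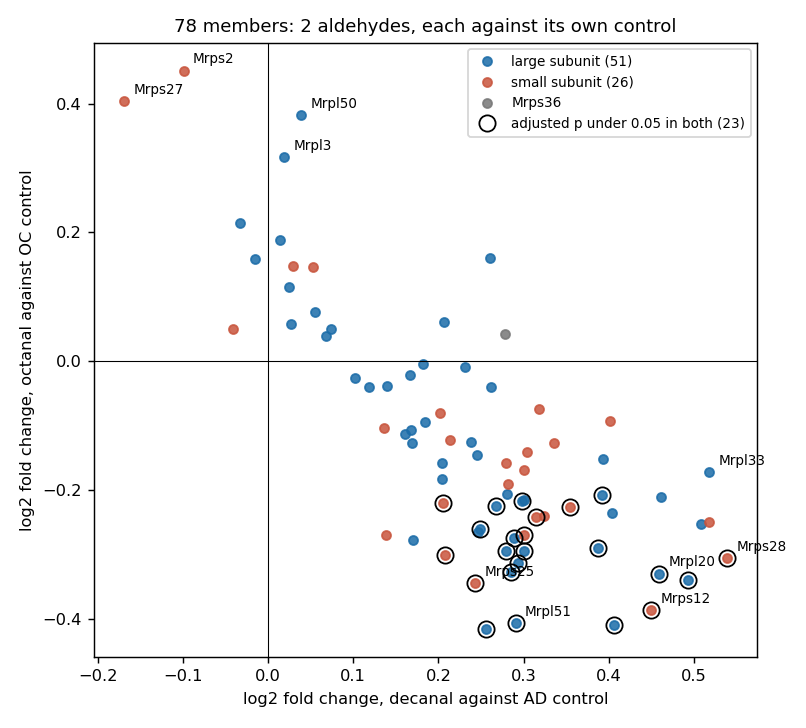
Log2 fold change of each member with decanal against the AD control (x) and with octanal against the OC control (y), by subunit, with rings around the 23 members called in both. All ringed members lie at the lower right, higher with decanal and lower with octanal, and Mrps2, Mrps27, Mrpl50 and Mrpl3 lie apart at the top, between -0.17 and 0.039 with decanal.

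The 2 control groups stood at different levels. Mrps12 was at 71.4 ± 1.68 CPM in the OC control and at 45.3 ± 1.52 in the AD control, and the summed members at 4446 ± 98.8 and 3590.3 ± 10.1 CPM (SD, n = 3). Mrps2 went the other way, with 27.5 ± 2.66 CPM in the OC control and 38.1 ± 1.81 in the AD control. The erythroid sum was 3051 ± 1257 and 578 ± 79.1 CPM. The tables were scaled separately, so these levels are set side by side without a test.

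The stalk that recruits translation factors to the large subunit is built from Mrpl10, Mrpl11 and Mrpl12. Mrpl12, of which several copies sit on the stalk and which has been reported to bind the mitochondrial RNA polymerase, had 89.6, 92.7 and 100.3 CPM with decanal and 78.3, 74.9 and 79.6 in the AD control (log2 fold change 0.28, SE 0.055, adjusted p = 0.00178), and 86.2, 83.7 and 85.9 with octanal and 106, 104 and 103 in the OC control (log2 fold change -0.29, SE 0.062, adjusted p = 0.00264). With transcript length and GC offsets Mrpl12 was at 0.11 with decanal (adjusted p = 0.153) and -0.15 with octanal (adjusted p = 0.0405). With coding length it was at 0.080 (adjusted p = 0.292) and -0.13 (adjusted p = 0.0663), without a call. Mrpl11, at the base of the stalk, had 48.8, 46.9 and 49.4 CPM with decanal and 41.2, 39.2 and 40.0 in the AD control (log2 fold change 0.27, SE 0.056, adjusted p = 0.00283). Its decanal value was 0.36 with transcript length offsets (adjusted p = 0.000575) and 0.13, without a call, with coding length (adjusted p = 0.0903). Mrpl10, which holds the copies of Mrpl12, had 64.0, 65.5 and 66.7 CPM with decanal and 63.6, 67.5 and 67.3 in the AD control (log2 fold change -0.015, SE 0.055, adjusted p = 0.881). Its groups overlapped, and it was called in no comparison with a control.

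The 3 paralogs of Mrps18 have separate places: Mrps18c and Mrps18b sit in the small subunit and Mrps18a in the large one. Mrps18c had 29.3, 28.4 and 33.6 CPM in the AD mixture and 21.7, 22.8 and 20.5 in the AD control (log2 fold change 0.49, SE 0.076, adjusted p = 0.000296), and a log2 fold change of 0.34 with decanal (adjusted p = 0.00473). Both Mrps18c calls were lost with transcript length and GC offsets, at 0.13 (adjusted p = 0.179) in the AD mixture and 0.013 (adjusted p = 0.925) with decanal. With coding length its AD mixture call was kept, at 0.28 (adjusted p = 0.00865). The decanal call was lost there too, at 0.15 (adjusted p = 0.127). Mrps18b was called with decanal (0.20, adjusted p = 0.0364), but in 1 of 6 fits without 1 library, the adjusted p reaching 0.15 without decanal replicate 3. With the AD mixture its value was 0.25 (adjusted p = 0.0118, and 0.0647 and 0.0688 without AD control replicate 3 or AD mixture replicate 1). Mrps18a was not called, at 0.17 with decanal (adjusted p = 0.058) and 0.17 with the AD mixture (adjusted p = 0.0638). Mrps36, now known as a part of the 2-oxoglutarate dehydrogenase complex, was at 25.1, 28.0 and 31.2 CPM with decanal and 24.5, 21.0 and 24 in the AD control (log2 fold change 0.28, SE 0.095, adjusted p = 0.0455), and was called in 1 of 6 fits without 1 library, the adjusted p reaching 0.261 without decanal replicate 3.

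By ancestry, 32 of 46 members with bacterial counterparts and 17 of 31 mitochondria-specific ones rose with decanal, with median log2 fold changes of 0.26 and 0.20. With octanal 16 of 46 and 9 of 31 fell, with medians of -0.16 and -0.11. The median transcript length was 1190.5 bases in the members with bacterial counterparts and 1424 in the others. The difference between these subsets was not tested.

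**Figure D5:**
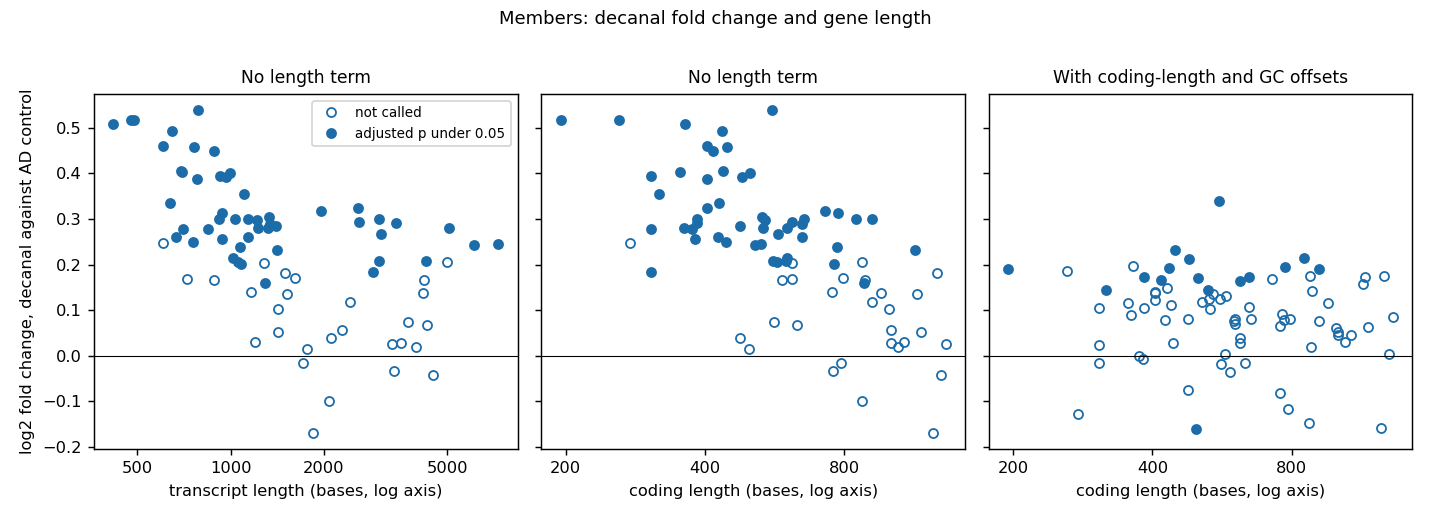
Log2 fold change of each member with decanal against the AD control, by transcript length (left) and coding length (middle) without a length term, and by coding length with coding-length and GC offsets (right), on log length axes, with filled points for an adjusted p under 0.05. Short members have the highest values without a length term, and with the offsets 16 points are filled, 15 of them above 0.

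Length moved with the members' values. The members are short, with a median transcript of 1302 bases against 2761 over the genes tested in the AD table. The 50 that rose with decanal had a median of 1062 bases and the other 28 of 1964.5. Across the 78 members the decanal log2 fold change had a Pearson correlation of -0.56 with log2 transcript length and -0.68 with log2 coding length, and across 19028 tested genes it was -0.26 with transcript length. With octanal the members' correlation was 0.29 with transcript length and 0.46 with coding length, and across 18698 genes it was 0.055. With transcript-length offsets the members' decanal correlation with transcript length turned to 0.56, and with coding-length offsets the one with coding length was -0.12. The members' median decanal log2 fold change was 0.25 without offsets, 0.087 with transcript length and 0.096 with coding length.

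For other genes of mitochondrial translation the shares to read the counts against are, over all tested genes, 11.4% higher and 12.5% lower with decanal and 14.4% and 15% with octanal. Of 5 further subunits that carry other names, 3 were higher and 1 lower with decanal, with a median log2 fold change of 0.21. Aurkaip1 (log2 fold change 0.35, SE 0.048, adjusted p = 0.00012), Chchd1 (log2 fold change 0.38, SE 0.10, adjusted p = 0.013) and Gadd45gip1 (log2 fold change 0.21, SE 0.058, adjusted p = 0.0183) rose, and Ptcd3, a pentatricopeptide-repeat protein of the small subunit, fell (log2 fold change -0.25, SE 0.073, adjusted p = 0.0205). With octanal Ptcd3 rose (log2 fold change 0.48, SE 0.088, adjusted p = 0.00107) and Gadd45gip1 and Aurkaip1 fell. Of 25 assembly and ribosomal RNA factors 2 were higher and 2 lower with decanal, and 7 and 4 with octanal, with medians of 0.087 and -0.038. The helicase gene Dhx30, needed for assembly of the ribosome, fell with decanal (log2 fold change -0.35, SE 0.05, adjusted p = 0.000164) and rose with octanal (log2 fold change 0.39, SE 0.097, adjusted p = 0.00741), while Mpv17l2 rose with decanal (log2 fold change 0.30, SE 0.058, adjusted p = 0.00168). Nsun4, which methylates the ribosomal RNA of the small subunit, rose with octanal (log2 fold change 0.38, SE 0.071, adjusted p = 0.00133).

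Of 15 translation factors and partners 2 were higher and 1 lower with decanal, and 4 and 1 with octanal, with medians of 0.017 and 0.036. Lrpprc and Slirp, whose proteins bind each other and steady mitochondrial messenger RNAs, moved apart with decanal: Lrpprc fell (log2 fold change -0.45, SE 0.084, adjusted p = 0.00129) and Slirp rose (log2 fold change 0.35, SE 0.08, adjusted p = 0.00489). Tsfm, an elongation factor, rose (log2 fold change 0.27, SE 0.064, adjusted p = 0.00597). Of 17 aminoacyl-tRNA synthetases 1 was higher and 2 lower with decanal, and 4 and 1 with octanal, with medians of -0.12 and 0.17. The higher synthetase with decanal and the lower with octanal was Lars2 (log2 fold change 0.64, SE 0.08, adjusted p = 6.56e-05 with decanal, and log2 fold change -1.53, SE 0.22, adjusted p = 0.000223 with octanal), whose counts are uncertain because its mouse transcript holds a stretch like mitochondrial ribosomal RNA. Rars2 rose with octanal (log2 fold change 0.63, SE 0.083, adjusted p = 0.000153). Of 17 genes of mitochondrial DNA upkeep and transcription 1 was higher and 3 lower with decanal (median -0.032), among them Ssbp1, the DNA-binding protein (log2 fold change 0.21, SE 0.052, adjusted p = 0.00721), and Ppargc1a, a coactivator of mitochondrial genes (log2 fold change -0.33, SE 0.091, adjusted p = 0.0147).

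Transcripts of mitochondrial DNA were higher with decanal and lower with octanal. They took 0.774 ± 0.0211% of counts with decanal and 0.808 ± 0.0665% in the AD mixture, against 0.260 ± 0.0237% in the AD control (SD, n = 3), and 0.417 ± 0.0392% with octanal, against 0.794 ± 0.173% in the OC control. Of 15 tested transcripts 14 were higher with decanal, with a median log2 fold change of 1.62, and 13 lower with octanal, with a median of -1.02. The ribosomal RNAs mt-Rnr1 and mt-Rnr2 were among those that fell with octanal (log2 fold change -1.36, SE 0.19, adjusted p = 0.00021, and log2 fold change -1.46, SE 0.19, adjusted p = 0.00015). Of 82 tested cytosolic ribosomal protein genes 79 were higher with decanal and 42 lower with octanal, with medians of 0.46 and -0.26. Of 74 nuclear genes of respiratory chain subunits 56 were higher and 2 lower with decanal, and 3 and 38 with octanal, with medians of 0.37 and -0.28. Under transcript length and GC offsets the cytosolic ribosomal count higher with decanal was 48 and the respiratory chain count 16. The same fit called 1366 of all 19525 tested genes higher and 1620 lower.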

How the data were processed

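The deposited tables hold the authors' expected counts per gene, estimates of which 12.8% (AD) and 12.6% (OC) are not whole. The submitters' processing notes name STAR 2.7.10b, Salmon 1.10.1, R 4.4.2 and GRCm39, without their roles, and the annotation release is not given in the sources used here. Per the labels' protocols the libraries are stranded poly(A) RNA, 3 biological replicates per group, and each table is a batch. The labels do not say how many animals a replicate holds, so p-values measure the spread between these samples.

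Expected counts were rounded and Ensembl IDs paired with symbols, lengths and GC content from GENCODE M21 (52029 of 57010 IDs matched). The 78 members and all lists were chosen with earlier results of these data known. Each table was fitted whole with edgeR 4.0.16 in R 4.3.3 (filterByExpr, TMM, quasi-likelihood test, Benjamini-Hochberg adjustment over all tested genes, threshold 0.05), after tests on simulated data. The SE is the size of the log2 fold change over the square root of F. Decanal and octanal effects were compared in 1 fit of 24 libraries. Sums were compared by two-sided exact permutation tests with SciPy 1.17.1. Members named in a comparison are the 4 with the smallest p in each direction, and also those called most often or in opposite directions, the highest and lowest 5 levels, the stalk and the Mrps18 paralogs. The promoters shown, Mrps28, Mrps36, Mrps24 and Mrpl52 beside decanal, and genes called across offsets were picked after their values were seen. Alternatives were other size factors, filters, DESeq2 1.42.0, fits of the compared groups alone, a replicate block, each library left out, and loess offsets (span 0.3, limma 3.58.1) for length and GC. The coding-length offsets were added after seeing the data.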

Additional observations from a re-analysis of the deposited data

Results flagged for a closer look

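Members that responded differently to 2 odorants are collected here. Between decanal and acetophenone, tested directly within 1 batch, 44 members were higher and 1 was lower with decanal. With transcript length and GC offsets these counts were 16 and 2, and with coding length 8 and 3. Over all 19525 tested genes 12.6% were higher and 14.4% lower without offsets. The counts over all genes were 1686 and 2216 with transcript length, and 1687 and 2453 with coding length. By coding length the share of members higher was close to that of all genes, and the share lower was below it. Between decanal and octanal, the effect against the own control was larger with decanal in 54 members and smaller in 4, by a test of the difference itself over both batches. With transcript length and GC offsets the counts were 31 and 7, and with coding length 26 and 5. Over all 20018 tested genes the effect was larger with decanal in 21.2% and smaller in 18% without offsets. The counts over all genes were 3208 and 3037 with transcript length, and 3394 and 3375 with coding length. The chain length of these aldehydes and the batch cannot be told apart.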

How the results depend on the processing

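Other size factors, other filters on low counts and DESeq2 kept the members' counts within 1.5 times and the medians within the spread between replicates, except that DESeq2 called 5 members with cis-3-hexenol in place of 3. Fits of the compared groups alone called 0 members with cis-3-hexenol, 4 in place of 11 with the OC mixture and 3 in place of 0 between octanal and cis-3-hexenol. These counts are not set beside all genes in those fits. With transcript length and GC offsets the members called numbered 21 with decanal (median 0.087), 25 with the AD mixture (0.12), 7 with the OC mixture, 18 between decanal and acetophenone and 38 between the decanal and octanal effects, and the octanal median was -0.047. With the replicate block added to these offsets they were 18 (0.087), 23 (0.12), 6, 16 and 38, with 16 (-0.046) for octanal and 1 for cis-3-hexenol. With coding length and GC offsets they were 16 with decanal (0.096), 16 with the AD mixture (0.094), 11 between decanal and acetophenone and 31 between the effects, with an octanal median of -0.056.

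With the replicate number as a block (replicate block, no offsets), 50 and 0 members were higher and lower with decanal, 50 and 1 with the AD mixture, 4 and 24 with octanal, 3 and 0 with cis-3-hexenol and 8 and 2 with the OC mixture. The numbers did not pair the libraries: deviations of same-numbered libraries from their group means correlated between -0.186 and 0.240, above 0.1 in 4 of 18 pairs. Leaving out 1 library gave 37 to 45 calls with decanal (medians 0.19 to 0.25), 39 to 52 with the AD mixture (0.20 to 0.26), 17 to 28 with octanal, 0 to 7 with cis-3-hexenol, 6 to 11 with the OC mixture, 27 to 41 between decanal and acetophenone and 51 to 57 between the effects.

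Of 1110 values over 74 gene and comparison pairs, 942 kept their direction and side of the threshold, 137 lost a call, 14 gained one and 17 changed sign, the cause of which was not tested. Mrpl47 with decanal was 0.072 with transcript length offsets and 0.071 with the block added, and Mrps18b with decanal -0.015 and -0.015. Mrps5 was 0.084, 0.083 and, with coding length, 0.0042 with decanal. With the AD mixture it was 0.097, 0.096 and 0.032 in these fits, 0.0014 with a filter at 1 CPM in 3 libraries, and between -0.035 and 0.013 without 1 library (0.0027 and 0.0026 in 2 others). Leaving out 1 library gave -0.065 to 0.0053 for Mrpl58 and -0.071 to 0.018 for Mrps11 with acetophenone, and -0.088 to 0.0012 for Mrpl16 with the AD mixture. How small a change could be called at this depth was not measured.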
